A study of Mus musculus with 20 samples.

Results

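Pancreatic islets lacking Mfn2 in β-cells were compared with control islets by RNAseq. The comparison took in every library that the sample labels name β-Mfn2KO (5 libraries) or Ctrl (6 libraries), 11 of the 20 libraries of the study, and all 28632 genes of the count table were tested. The β-Mfn2KO mice carried an Mfn2 gene with loxP sites on both sides of exon 6 and a Cre recombinase knocked into the Ins1 locus, so that deletion is driven by the Ins1 promoter in β-cells, while the α-cells, δ-cells and other cells of the islet keep the gene. The labels give their genotype as Mfn2-/- and that of the Ctrl mice as wild type. The study's methods describe the controls as a pool of littermates with Ins1-Cre alone or with floxed Mfn1 or Mfn2 alleles alone, and the labels do not tell which Ctrl library came from which of these. All mice were 12 weeks old and on a C57BL/6N background, Ctrl with 3 female and 3 male libraries and β-Mfn2KO with 2 and 3, and islets of both groups were kept in culture for a day after isolation. The 4 β-Mfn1KO libraries (floxed Mfn1 exon 4, same Cre) and the 5 β-Mfn1/2DKO libraries (both floxed genes, same Cre) are used below only where they show what is particular to β-Mfn2KO. The labels number the samples of each genotype but do not name the mouse behind each library, so p-values measure the spread between these libraries.

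Mfn2 is a GTPase of the outer mitochondrial membrane that joins mitochondria to each other, a task it shares with its relative Mfn1, and it is also found where mitochondria touch the endoplasmic reticulum. Mitochondria hold their own circular genome, mtDNA, which encodes the core subunits of the respiratory chain, the rRNAs of the mitochondrial ribosome and a set of tRNAs, and which is transcribed from both strands as long precursors that are cut into single transcripts. All other mitochondrial proteins, among them most respiratory chain subunits and every factor that copies or transcribes mtDNA, are encoded in the nucleus. β-cells depend on respiration, since ATP made from glucose triggers insulin release.

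Short sequences were read from the GENCODE transcripts of GRCm38. The starts of the coding sequences of Ins1 (chr19:52264624-52264713, plus strand) and Ins2 (chr7:142679444-142679533, minus strand), the pair of mouse insulin genes, are shown because the counts of Ins1 and not of Ins2 differed between the groups. Capitals mark the 12 of 90 bases at which they differ. No stretch of 75 bases is shared between the transcripts of the 2 genes, so reads of this length can tell them apart.
Ins1: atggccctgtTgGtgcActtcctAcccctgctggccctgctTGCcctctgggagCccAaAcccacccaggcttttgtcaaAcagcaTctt
Ins2: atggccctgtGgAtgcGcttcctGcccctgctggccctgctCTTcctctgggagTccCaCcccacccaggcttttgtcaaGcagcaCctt

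The last sequence is the end of mt-Nd5 (chrM:13521-13565, plus strand), where the genes of the 2 mtDNA strands meet. Capitals mark the 14 bases that also belong to mt-Nd6, which is read from the opposite strand.
mt-Nd5 end: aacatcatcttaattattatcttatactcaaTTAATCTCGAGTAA

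Depth ran from 12400687 to 20329064 counts in Ctrl and was 15471421, 18919122, 15110046, 55962873 and 59533407 in β-Mfn2KO replicates 1 to 5, so replicates 4 and 5 were read far more deeply than any Ctrl library. Both of these replicates were male. The β-Mfn1/2DKO libraries held 65533388 to 122947313 counts, so differences between them and β-Mfn2KO come with a difference in depth. Fits of the shallow libraries, where given below, took in Ctrl, β-Mfn1KO and β-Mfn2KO 1 to 3 alone. Marker sums showed that Ctrl 6 and β-Mfn2KO 5 held more fibroblast RNA (12381 and 13255 normalised counts over 5 genes, against 733 to 2994 in the other 9 libraries) and more leukocyte RNA (2612 and 2992, against 745 to 1012). Of the 11 libraries, β-Mfn2KO 4 held the most acinar RNA (268886, against 11047 to 70333 in the others), while β-Mfn1/2DKO 4 and 5 held more (636176 and 1629430). No marker of any of the 10 cell types was at 0 in all 11 libraries. Among the markers of islet cells, Ins1 alone differed between the groups by the adjusted test. The female-specific Xist and the Y-linked Ddx3y matched the sex label in 11 of 11 libraries, with a low Xist level (184 and 190 normalised counts) in the male libraries Ctrl 6 and β-Mfn2KO 5 against 6.82 to 21.05 in the other males.

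Mfn2 (GRCm38 chr4:147873599-147904704, minus strand) stood at 1532, 1586, 1688, 1474 and 1607 normalised counts in the 5 β-Mfn2KO libraries, against a lowest, median and highest value of 3089, 3252 and 4373 in Ctrl. The groups did not overlap, and the β-Mfn2KO libraries lay close together at 45% of the Ctrl mean. The log2 fold change was −1.15 ± 0.08 (SE), and the quasi-likelihood test of edgeR gave a p of 1.1e-08 after Benjamini-Hochberg adjustment over all genes. The counts cover the whole gene and do not tell transcripts with exon 6 from any without it. In bulk islets, fewer cells of a type and less RNA per cell cannot be told apart. Of the Ctrl libraries, replicates 1 (4373) and 6 (3910.1) were the highest, near the 3869 to 4607 of β-Mfn1KO, and without these 2 libraries, left out after their values were seen, the log2 fold change was −1.02. In β-Mfn1/2DKO, Mfn2 lay at 2022 to 2131, above β-Mfn2KO by a log2 difference of 0.40 (adjusted p = 0.0011).

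Mfn1 (chr3:32529465-32579239), the other mitofusin, stood at 1712, 1711, 1683, 1807 and 1693 in β-Mfn2KO and at 1518, 1693 and 1807 (lowest, median and highest) in Ctrl. Of the β-Mfn2KO values, 4 lay inside the Ctrl range and replicate 4 at its upper end, and the log2 fold change of 0.04 ± 0.09 (SE) did not pass the test (adjusted p = 1).

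**Figure D1:**
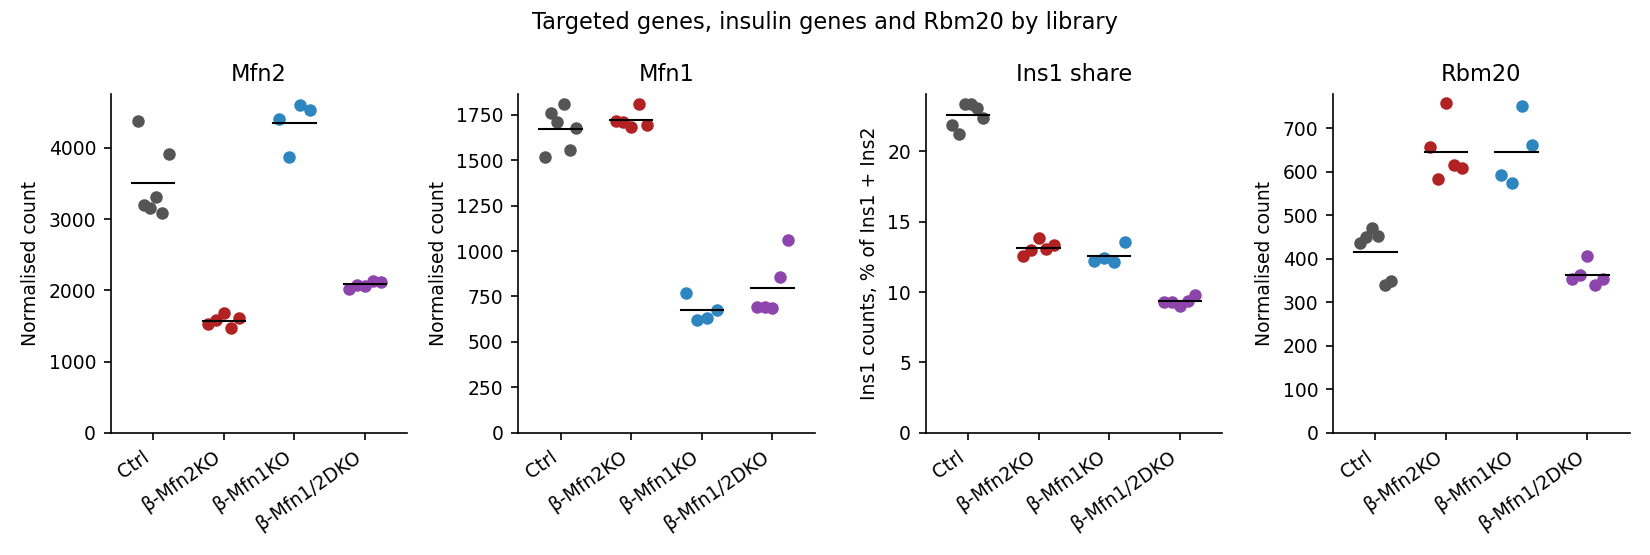
Normalised counts of Mfn2, Mfn1 and Rbm20 and the share of Ins1 in the counts of both insulin genes (vertical axes) in each library of the 4 genotypes; points are libraries and lines are group means. The 5 β-Mfn2KO libraries lay at 1474 to 1688 for Mfn2, below all Ctrl libraries, and at 12.6 to 13.9% for the Ins1 share, near β-Mfn1KO and below Ctrl at 21.3 to 23.4%.

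Very few genes separated the groups in the main edgeR fit. With a fold change over 1.5 together with an adjusted p under 0.05, 15 of the 28632 genes (0.0524%) were called, 2 higher and 13 lower in β-Mfn2KO, and 16 genes (0.0559%) had an adjusted p under 0.05 alone. The 13 lower genes were Mfn2, Ins1, 9 mRNAs of mtDNA, a nuclear copy of one of them (Gm28661) and Cldn11, and the 2 higher genes were Rbm20 and Olfr330. The sixteenth gene, mt-Nd2, missed the fold limit. Without adjustment, 1208 genes had a p under 0.05, 707 higher and 501 lower. Among the 12214 genes with a mean of at least 100 normalised counts, the median log2 fold change was 0.01 with quartiles of −0.05 and 0.06, and the median SE was 0.08. Of these genes, 6541 had a positive and 5673 a negative log2 fold change.

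The mRNAs of mtDNA fell together. Of all counts of a library, the 13 of them took up 1.20, 1.13, 1.10, 1.15 and 1.19% in β-Mfn2KO and 1.72, 1.84 and 2.01% (lowest, median and highest) in Ctrl. The means were 1.15% ± 0.0438 (SD, n = 5) and 1.86% ± 0.114 (SD, n = 6), a difference of −0.709 percentage points. An exact two-sided permutation test gave p = 0.00433, the smallest value that 6 against 5 libraries can give, and 0.00866 after adjustment over the 4 shares tested. The groups did not overlap, and the deep and the shallow β-Mfn2KO libraries gave like shares. The share was 1.78% on average in β-Mfn1KO and 0.636% in β-Mfn1/2DKO. By gene, 10 of the 13 mRNAs fell with an adjusted p under 0.05, 9 of them beyond the fold limit, all 13 had a negative log2 fold change, and the median was −0.68.

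The transcripts of complex I, which takes electrons from NADH, took in the largest fold change of mtDNA (mt-Nd6) and the one of largest SE (mt-Nd4l). mt-Nd6, the sole mRNA of its strand, stood at 7329, 7528, 6787, 8930.5 and 8113 normalised counts in β-Mfn2KO and at 12487, 16876 and 19066 in Ctrl, where, as for all Ctrl triplets below, the values are the lowest, median and highest. Its log2 fold change of −1.07 ± 0.09 (SE) (adjusted p = 3.8e-07) left 47.5% of the Ctrl mean, the lowest share of the mtDNA genes, and no libraries overlapped. mt-Nd5, its neighbour on the other strand, stood at 51036, 48504, 43939, 45234 and 40195 against 65400.2, 91488 and 104267 and fell too (log2 difference −0.95 ± 0.13, adjusted p = 0.0013). The 2 genes share only the bases shown above, and, as no source used here says whether the counting used strand, reads at that end could be assigned to either. mt-Nd4 stood at 57775, 53892, 44806, 51148 and 49020.3 against 72047, 85382 and 90812 (−0.71 ± 0.10, adjusted p = 0.0014), again with no overlap.

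mt-Nd1 and mt-Nd2, which open the row of mRNAs after the rRNA genes, changed less. mt-Nd1 stood at 46239.8, 44752, 38388, 45988 and 42904 against 46634, 70129.5 and 73539 (−0.59 ± 0.10, adjusted p = 0.015). Its lowest Ctrl library, replicate 6, lay just above the highest β-Mfn2KO library, and its fold, at the limit of 1.5, or its adjusted p missed the call in 12 of 25 alternatives. mt-Nd2 stood at 42084, 39686, 32253, 39791 and 39433 against 55719, 57174 and 59689.9 (−0.57 ± 0.09, adjusted p = 0.0037), with replicate 3 below the other 4 and a Ctrl group that spread very little. The short mt-Nd3 and mt-Nd4l did not pass the adjusted test. mt-Nd3 stood at 1109, 847, 1047, 1929.7 and 1639 against 1204, 2149 and 2481 (−0.61 ± 0.18, adjusted p = 0.93), and mt-Nd4l at 217, 302, 140, 425 and 499 against 157, 589 and 683 (−0.65 ± 0.33, adjusted p = 0.93). In both, the 2 deep β-Mfn2KO libraries were the highest of their group, and in the fit of the shallow libraries mt-Nd3 stood at −1.02 (adjusted p = 0.0068) and mt-Nd4l at −1.19 (adjusted p = 0.94).

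mt-Cytb, the mtDNA subunit of complex III, stood at 63648, 55722, 52728, 54128 and 52573 against 76044, 93885 and 103851 (−0.72 ± 0.10, adjusted p = 0.0014), without overlap. The 3 subunits of complex IV, the enzyme that reduces oxygen, all fell. mt-Co1, the most abundant by counts, stood at 146672, 129210, 130697, 130714 and 130693 against 187944, 211721 and 238975 (−0.68 ± 0.10, adjusted p = 0.0014), with 4 of the 5 β-Mfn2KO libraries nearly equal. mt-Co2 stood at 20436, 17769, 21695, 24214 and 24579.5 against 30926, 38118 and 49195 (−0.84 ± 0.15, adjusted p = 0.019), and mt-Co3 at 50296, 46391, 46696, 50244 and 46352 against 70031, 80371 and 94913 (−0.77 ± 0.10, adjusted p = 6.6e-04). No libraries overlapped in either.

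The ATP synthase subunits of mtDNA gave unlike values. mt-Atp6 stood at 38225, 30559, 28363, 32479 and 32084 against 44645, 50545 and 58308 (−0.65 ± 0.09, adjusted p = 0.0013), without overlap. mt-Atp8, whose short gene overlaps that of mt-Atp6, stood at 307, 377, 337, 698 and 800.4 against 391, 519.5 and 638 and had a change of −0.02 ± 0.21 on the log2 scale (adjusted p = 1). Here replicates 1 to 3 lay below every Ctrl library and the deep replicates 4 and 5 above every one, so the fold change averages over values that move with depth. In the fit of the shallow libraries it was −0.61 (unadjusted p = 0.00062, adjusted p = 0.54). Depth class as a covariate, added after the data were seen, gave −0.62 (unadjusted p = 0.00080). β-Mfn2KO alone held libraries of both classes, so this fit sets the same shallow libraries against Ctrl and is not a separate result. Short genes as a class moved the same way within β-Mfn2KO, where length is that of all annotated exons of a gene together. The median difference between deep and shallow libraries was 0.19 on the log2 scale among 312 genes of up to 1000 bases. It was −0.03 among 7042 genes over 4000 bases.

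Neither rRNA passed the test. mt-Rnr1, the small-subunit rRNA, stood at 7927, 5915, 4714, 6074 and 6160.4 against 4814, 5408 and 5939.5 (0.18 ± 0.11), and mt-Rnr2, the large-subunit rRNA, at 22236, 17210.5, 12636, 19717 and 17065 against 16762, 20478 and 26994 (−0.24 ± 0.18), both with an adjusted p of 0.93. The groups overlapped in both genes. Both rRNAs together took up 0.0573% of the counts in β-Mfn2KO and 0.0624% in Ctrl (two-sided exact permutation p = 0.442). For each 100 counts of mtDNA mRNA, there were 5.74, 4.86, 3.87, 5.31 and 4.95 counts of rRNA in β-Mfn2KO and 2.83 to 4.68 in Ctrl, so that replicate 3 alone lay inside the Ctrl range. How much rRNA was removed before sequencing is not given in the sources used here, and rRNA counts depend on it. In β-Mfn1/2DKO, by contrast, mt-Rnr1 was below β-Mfn2KO by a log2 difference of −1.13 (adjusted p = 1.0e-06) and mt-Rnr2 by −1.02 (adjusted p = 7.6e-04). No tRNA of mtDNA is among the genes analysed here.

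**Figure D2:**
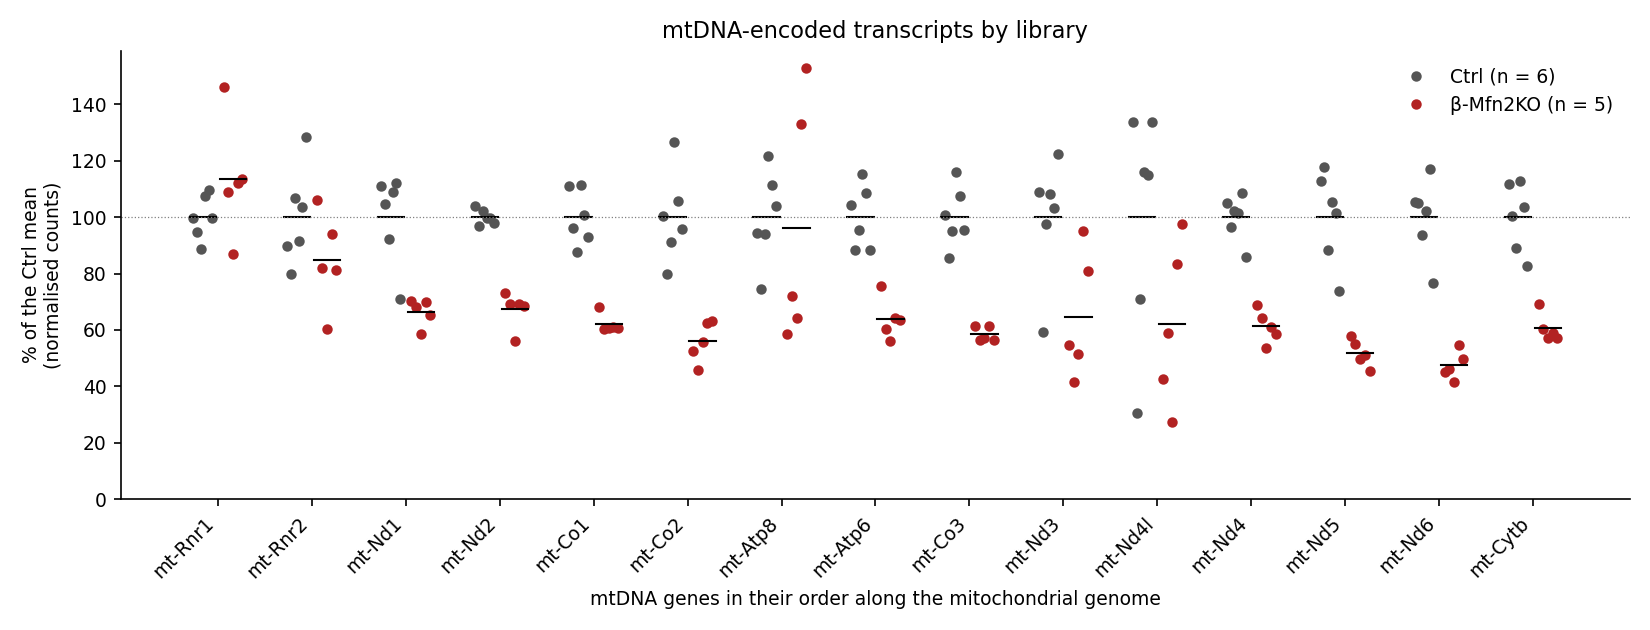
Normalised counts of the 13 mRNAs and 2 rRNAs of mtDNA in percent of the Ctrl mean (vertical axis), in genome order, with 1 point for each library and lines at group means. β-Mfn2KO means lay between 47.5% (mt-Nd6) and 67.3% (mt-Nd2) for the 10 mRNAs that passed the test, while mt-Rnr1 (114%), mt-Rnr2 (84.7%) and mt-Atp8 (96.2%) overlapped with Ctrl.

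Nuclear DNA holds copies of parts of mtDNA, and reads of near-identical genes can be divided between them by the counting. At least 97.81% of the 75-base stretches of mt-Co2, mt-Atp6, mt-Co3, mt-Nd3 and mt-Nd4l also occur in 1 nuclear gene each, as do 61.5% of mt-Nd4 and 27.53% of mt-Co1, so single values of these genes are uncertain. mt-Nd1, mt-Nd6, mt-Cytb, mt-Atp8 and both rRNAs share none. Gm28661, the copy of mt-Co2, stood at 43393, 31591, 35785, 45215 and 44263 against 58482, 69361 and 84043 and fell as mt-Co2 did (−0.81 ± 0.12, adjusted p = 0.0019). With each mtDNA gene summed with its nuclear copies, an alternative added after the data were seen, 10 mRNAs again passed, mt-Co2 with −0.82 (adjusted p = 0.0012), while mt-Atp6, at −0.56, then missed the fold limit.

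The fall of the mtDNA mRNAs was found with loss of Mfn2 and was larger with loss of both genes. In β-Mfn1KO the median over the 13 was −0.06 and in β-Mfn1/2DKO −1.73, both against the same Ctrl libraries that β-Mfn2KO was compared with. The direct test of β-Mfn1/2DKO against β-Mfn2KO, in which 13% of all genes had an adjusted p under 0.05, placed 13 of 13 mRNAs lower in β-Mfn1/2DKO (median difference −1.01). In the direct test of β-Mfn2KO against β-Mfn1KO, which gave 0.335% of all genes, mt-Nd6 differed by −0.98 (adjusted p = 6.0e-06) and mt-Co1 by −0.62 (adjusted p = 0.0069). No difference of the effect between the sexes was detected. The interaction test of edgeR gave 0 genes with an adjusted p under 0.05, with 1004 genes at an unadjusted p under 0.05. mt-Nd6 had log2 fold changes of −1.02 in males and −1.15 in females. The values of Ins1 lay further apart, at −1.16 in males and −0.67 in females (unadjusted p of the interaction test 0.032). Both deep β-Mfn2KO libraries were male, so this test does not separate sex from depth.

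The nuclear partners of these mRNAs stayed near Ctrl. Of the 76 listed nuclear genes for subunits of complexes I to V, 75 were in the table, all with a mean of at least 100 counts, and 0 of them had an unadjusted p under 0.05 in edgeR, where 2.36% of all genes of that level did so upward and 2.19% downward. Their log2 fold changes ran from −0.21 to 0.13 with a median of −0.02, beside 0.01 over all genes. The medians were −0.02 for 36 subunits of complex I, −0.01 for 4 of complex II, −0.07 for 9 of complex III, −0.00 for 10 of complex IV and −0.02 for 16 of complex V. Atp5b, the catalytic β-subunit of ATP synthase, stood at 28399.5, 30400.4, 28543, 29569 and 29278 against 27611, 29917 and 30902 (−0.03 ± 0.06), and Cox4i1, a subunit of complex IV, at 7938, 8303, 7742, 8850.1 and 9436 against 7998, 8479 and 9567 (−0.05 ± 0.07). The libraries of the groups overlapped in both. As a share of all counts, the nuclear subunits took up 0.715% ± 0.0553 in β-Mfn2KO (SD, n = 5) and 0.713% ± 0.0427 in Ctrl (SD, n = 6), a difference of 0.00175 points (two-sided exact permutation p = 0.952). Among the shallow libraries the median was −0.10, with 12 of 75 members lower at an unadjusted p under 0.05 (2.42% of all genes were), and 0 passed the adjusted test. In that fit the median was −0.11 over all genes of that level with an exon length of up to 1000 bases and 0.02 over those above 4000 bases. The part of exon length in the lower values was not tested.

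Genes that copy, pack and read mtDNA were also little changed. Of 16 listed genes of mtDNA replication and the nucleoid, 15 had a mean of at least 100, of which 0 passed the adjusted test and the median was −0.00. Tfam, which packs mtDNA and starts its transcription, stood at 1419, 1385, 1623, 1576 and 1427 against 1453, 1537 and 1665 (−0.06 ± 0.05), and Polg, the mtDNA polymerase, at 2113, 2046, 2003, 2028 and 1941 against 1838, 1898 and 2256 (0.05 ± 0.06). Neither separated the groups. At an unadjusted p under 0.05 stood Mgme1, a mitochondrial exonuclease (0.19 ± 0.08), whose counts are uncertain because the far more abundant Snx5 overlaps it on the opposite strand, and Top3a, a topoisomerase that serves mtDNA (−0.19 ± 0.07). The 22 genes of mtDNA transcription and mtRNA processing had a median of 0.01, with Lrpprc, which stabilises mitochondrial mRNAs, at 4181, 4617, 4377, 4295 and 4167 against 3684, 3793 and 4273 (0.15 ± 0.07, unadjusted p = 0.031). Of 12 genes of mitochondrial nucleotide supply at that level (15 listed), 10 had a positive sign, where 6541 of all 12214 genes had. The median was 0.07, with Slc25a36, a pyrimidine nucleotide carrier, at 0.17 ± 0.06 (unadjusted p = 0.011).

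The other mitochondrial families gave the same picture of small values. Measured here means a mean of at least 100 normalised counts. Of 18 measured genes of fusion and fission (21 listed), Mfn2 alone passed the adjusted test, and Dnm2, a dynamin, stood at 0.15 ± 0.06 (unadjusted p = 0.017). Of the 20 measured genes at contacts of mitochondria and endoplasmic reticulum (21 listed), 0 passed, with Rmdn3, a tether of the 2 organelles, at −0.13 ± 0.05 (unadjusted p = 0.028). Medians were −0.01 for 78 mitochondrial ribosomal proteins, 0.02 for 27 genes of protein import, −0.01 for 18 chaperones and proteases, −0.00 for 10 genes of cristae organisation, −0.03 for 10 of mitochondrial calcium transport, −0.00 for 31 of the TCA cycle and −0.01 for 20 of fatty acid oxidation. In that last list Etfb, which passes electrons from fatty acid oxidation to the respiratory chain, stood at 2736, 2772, 2824, 2839.6 and 2856 against 2896, 3164 and 3582 (−0.19 ± 0.06, unadjusted p = 0.0075). The 11 measured regulators of mitochondrial biogenesis (14 listed) had a median of 0.01, with the nuclear receptor gene Esrrg at 0.22 ± 0.08 (unadjusted p = 0.013). The 23 genes of autophagy and mitophagy (25 listed) had a median of −0.01, with Optn, a mitophagy receptor, at 1097, 1162, 1198, 1166 and 1249 against 849, 1023 and 1155 (0.22 ± 0.06, unadjusted p = 0.0019). None of the genes named here beside Mfn2 passed after adjustment.

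**Figure D3:**
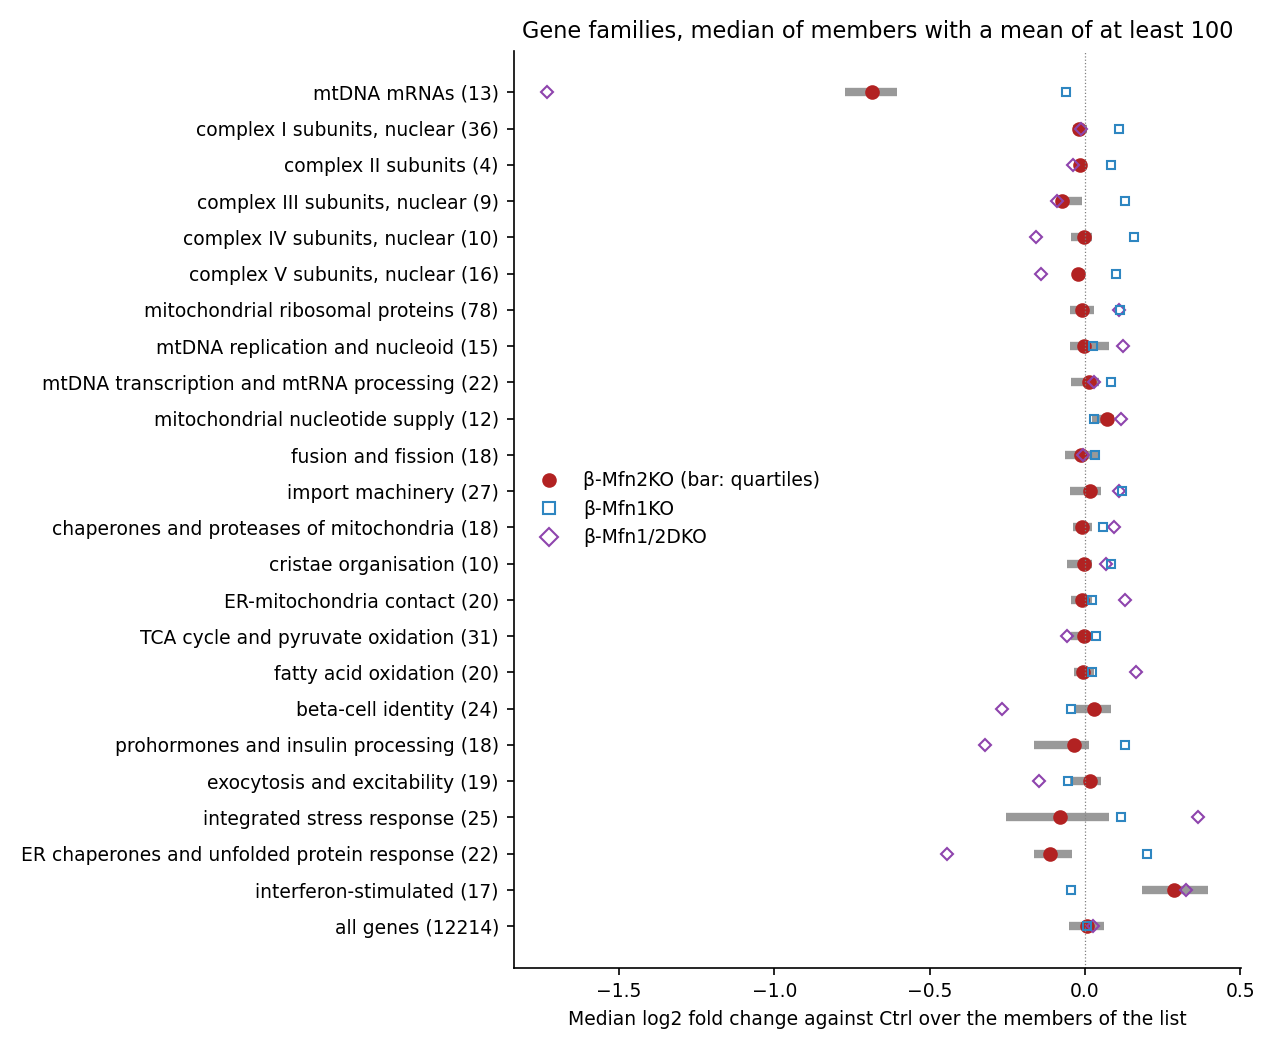
Median log2 fold change against Ctrl (horizontal axis) over the members of 23 gene lists and over all genes with a mean of at least 100 normalised counts (numbers of genes in brackets), as circles with quartile bars for β-Mfn2KO, squares for β-Mfn1KO and diamonds for β-Mfn1/2DKO, which share the Ctrl libraries. For β-Mfn2KO the mtDNA mRNAs lay at −0.68, while the nuclear mitochondrial lists lay between −0.07 and 0.07.

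The β-cell genes were near Ctrl apart from Ins1. Of 24 genes of β-cell identity, 0 had an unadjusted p under 0.05 in edgeR, against the shares of 2.36% higher and 2.19% lower among all genes of that level, and the median was 0.03. In the shallow libraries 4 of the 24 were higher at an unadjusted p under 0.05 (2.62% of all genes were), among them Slc2a2 (0.31) and Mafa (0.32), and 0 passed the adjusted test. Slc2a2, the glucose transporter GLUT2, stood at 26134, 29677, 21391, 23031 and 17263 against 17626, 20512 and 24562 (0.18 ± 0.15), and Mafa, a transcription factor of mature β-cells, at 71562, 63119.5, 47979.7, 58412 and 38389 against 38736, 51175 and 53144 (0.20 ± 0.17). The libraries overlapped in both. Both were lower in β-Mfn1/2DKO than in β-Mfn2KO, Slc2a2 by a log2 difference of −1.78 (adjusted p = 1.9e-07) and Mafa by −1.51 (adjusted p = 6.1e-06), as were 13 of the 24 in all, where 11.9% of all genes with a mean of at least 100 were lower. The hormone genes of the other islet cells, Gcg of α-cells (−0.20 ± 0.21) and Sst of δ-cells (−0.18 ± 0.16), did not pass either (adjusted p = 0.93 in both).

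Ins1 (chr19:52264297-52265476) stood at 844696, 730198, 715515, 827552 and 650437 normalised counts in β-Mfn2KO and at 1065890, 1344595 and 1962280 in Ctrl. The groups did not overlap, and the log2 difference was −0.94 ± 0.13 (SE) (adjusted p = 0.0014). Ins2, the other insulin gene, stood at 5885300, 4904420, 4447220, 5513290 and 4225420 against 3947990, 4740020 and 6530610, a log2 difference of 0.02 ± 0.13 (adjusted p = 1). As a share of the counts of both genes, which needs no scaling between libraries, Ins1 took up 12.6, 12.96, 13.9, 13.1 and 13.3% in β-Mfn2KO and 21.3, 22.7 and 23.4% in Ctrl, with means of 13.2% ± 0.486 (SD, n = 5) and 22.6% ± 0.880 (SD, n = 6). For the difference of −9.41 points an exact two-sided permutation test gave p = 0.00433 (adjusted p = 0.00866). Every knockout genotype carries Cre in the Ins1 locus, and the share was 12.1 to 13.6% in β-Mfn1KO and 9.03 to 9.82% in β-Mfn1/2DKO. The low share was thus also found in β-Mfn1KO, where Mfn2 is not floxed. The labels do not tell which Ctrl libraries carry Cre, so β-Mfn2KO against Ctrl alone does not separate Cre from the deletion of Mfn2. The part of each was not tested. Between β-Mfn2KO and β-Mfn1KO, Ins1 differed by −0.12 (adjusted p = 0.75).

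Rbm20 (chr19:53677306-53867080), a regulator of RNA splicing, lies 1.51 Mb from Ins1 on the same chromosome and was 1 of the 2 genes called higher. It stood at 657, 583, 759, 616 and 609.6 in β-Mfn2KO and at 341, 443 and 471 in Ctrl (0.63 ± 0.10 (SE), adjusted p = 0.004), without overlap. Its adjusted p stayed under 0.05 in all 25 alternatives of the processing, but in 5 of them the fold was just under 1.5, the lowest log2 value being 0.57 without β-Mfn2KO 3. β-Mfn1KO lay at a like level (575 to 753, log2 fold change 0.63 against Ctrl, adjusted p = 0.025), and β-Mfn1/2DKO did not (339 to 406, −0.82 against β-Mfn2KO, adjusted p = 6.4e-06). The antisense gene Gm16299 overlaps Rbm20 and had 264 counts where Rbm20 had 3387. Of the 29 genes within 5 Mb of Ins1 with a mean of at least 100, Rbm20 and Gpam (0.16 ± 0.07, unadjusted p = 0.034), which starts glycerolipid synthesis, had an unadjusted p under 0.05, which is 6.9% where all genes of that level gave 4.55%.

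Olfr330, an olfactory receptor gene of low level, stood at 33.9, 60.3, 83.5, 52.3 and 42.3 in β-Mfn2KO and at 11.6, 21.2 and 27.5 in Ctrl (1.33 ± 0.23 (SE), adjusted p = 0.019). The lowest β-Mfn2KO library, replicate 1, lay near the highest Ctrl library, and the call was lost in 13 of the 25 alternatives. In 11.07% of its 75-base stretches it matches other genes, mainly Olfr325. In β-Mfn1/2DKO it stood at 221 to 333 (2.41 against β-Mfn2KO, adjusted p = 1.1e-07).

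Cldn11 (chr3:31149920-31164324), a tight junction gene, had the largest called fold change, and it lies 1.40 Mb from Mfn1. It stood at 53.6, 40.2, 40.4, 28.8 and 49.5 in β-Mfn2KO and at 1634, 71.9, 1069.7, 49.1, 956 and 766 in Ctrl replicates 1 to 6. The Ctrl libraries thus fell into high values in replicates 1, 3, 5 and 6 and values near those of β-Mfn2KO in replicates 2 and 4, so the log2 fold change of −4.18 ± 0.62 (SE) (adjusted p = 0.0022) rests on 4 of the 6 Ctrl libraries. It was 1324 to 2084 in β-Mfn1KO and 632 to 1163 in β-Mfn1/2DKO. Without Ctrl 2 and 4, left out after their values were seen, the log2 fold change was −4.73. The call was lost when only the shallow libraries were used (adjusted p = 0.10).

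Neighbours of the 2 mitofusin genes showed more of such splits within Ctrl. Of 43 genes within 5 Mb of Mfn1, 6 (14%) had an unadjusted p under 0.05, against 4.55% of all genes of that level, 5 higher and 1 lower. Without Ctrl 2 and 4, 10 of the 43 had such a p (3.77% of all genes did), and without Ctrl 1 and 6, 7 had (5.7% of all genes did). Both pairs were left out after the data were seen. Gm37459, a predicted gene, stood at 392, 487, 369, 441 and 355 in β-Mfn2KO and at 119, 410.4, 173, 302, 189 and 162 in Ctrl replicates 1 to 6, where again replicates 2 and 4 were nearest to β-Mfn2KO. Its log2 change from Ctrl was 0.85 ± 0.25 (adjusted p = 0.93), and 1.34 without Ctrl 2 and 4 (adjusted p = 0.016). As these 2 libraries lay nearest to β-Mfn2KO, leaving them out enlarges the difference, and that fit is not a separate result. Zmat3, an RNA-binding target of p53 (0.31 ± 0.12), and Actl6a, a subunit of chromatin remodelling complexes (0.26 ± 0.10), had their 2 highest Ctrl values in the same replicates.

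Near Mfn2 the split ran through other Ctrl libraries. Of 67 genes within 5 Mb, 9 (13.4%) had an unadjusted p under 0.05, 2 higher and 7 lower, and 2 of the 9 remained when Ctrl 1 and 6 were left out, an alternative added after the data were seen. In that fit 3 of the 67 had such a p, where 5.7% of all genes of that level did. Without Ctrl 2 and 4, 7 of the 9 remained and 15 of the 67 had such a p, where 3.77% of all genes did. Zfp991, a zinc finger gene, stood at 110, 127, 121, 138 and 109 in β-Mfn2KO and at 677, 144, 146, 147, 114 and 386 in Ctrl replicates 1 to 6, and at 468 to 638 in β-Mfn1KO. It stood at −1.15 ± 0.34 on the log2 scale (adjusted p = 0.93) and at −0.18 without the 2 libraries. Eno1, a glycolytic enolase, stood at 4494, 4608, 5209, 4673 and 5961 against 11676, 5661, 5102, 4988, 4815 and 8172 and went from −0.43 ± 0.18 to −0.04. Miip (−0.45 ± 0.19) and Agtrap (−0.24 ± 0.09) were likewise highest in Ctrl 1 and 6, as was Mfn2 itself. Masp2, by contrast, was lowest there, at 2.91 and 24.9 against 44.4 to 93.3 in the other Ctrl libraries and 40.4 to 98.7 in β-Mfn2KO. The origin of these splits was not tested.

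**Figure D4:**
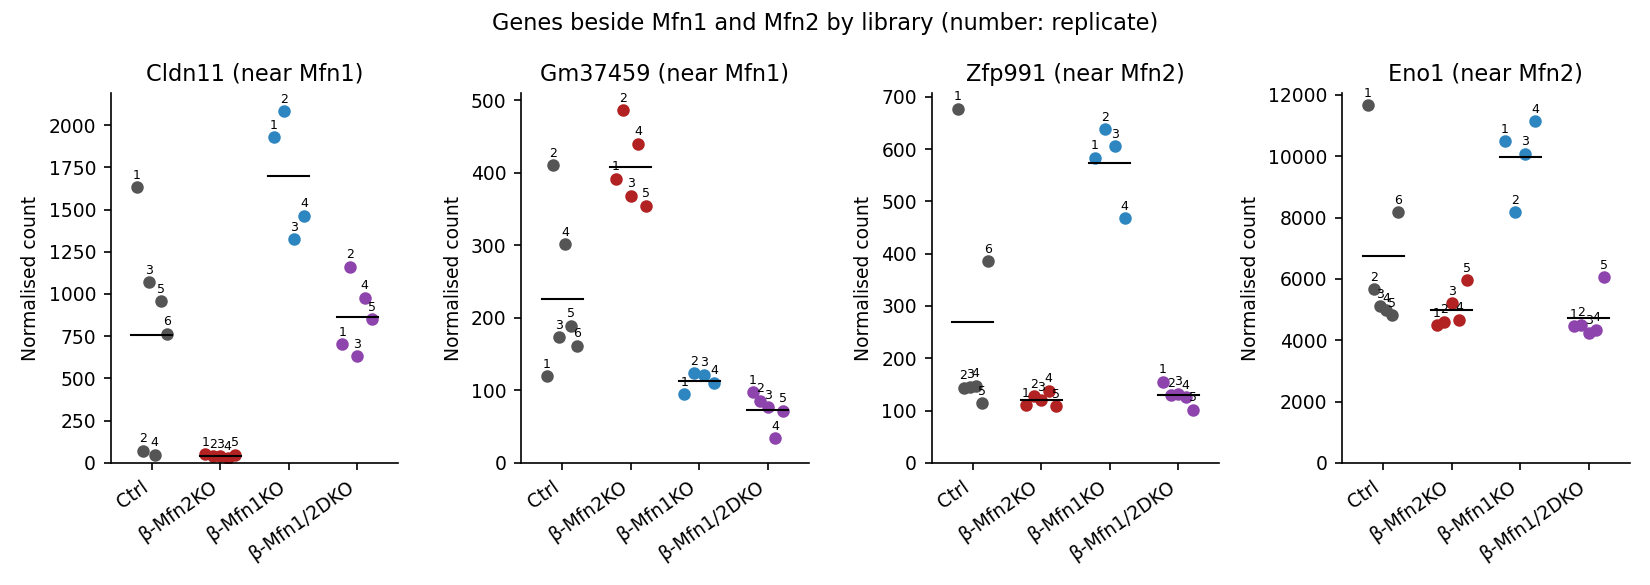
Normalised counts (vertical axes) of 2 genes near Mfn1 and 2 genes near Mfn2 in each library of the 4 genotypes, with replicate numbers beside the points and lines at group means. Ctrl replicates 2 (71.9) and 4 (49.1) lay beside β-Mfn2KO for Cldn11, and Ctrl replicates 1 and 6 lay apart from the other Ctrl libraries for Zfp991 and Eno1.

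Of all genes with a mean of at least 100, 35 (0.287%) were higher and 35 (0.287%) lower in every β-Mfn2KO library than in every Ctrl library, of which 1 and 13 had an adjusted p under 0.05 and are described above. Of the others, leaving aside genes already named, the 8 of lowest p in each direction did not pass the adjusted test. Spock1, a secreted proteoglycan, came nearest, at 3941, 4215, 2980.1, 3147 and 2806 against 1781, 2287 and 2673 (0.61 ± 0.12, adjusted p = 0.062). It passed under total-count scaling (adjusted p = 0.013), with sex as a covariate (0.041), among the shallow libraries (0.025) and without Ctrl 2 and 4 (0.016). It did not pass with TMM from nuclear genes (0.063), with the replicate block (0.059) or without Ctrl 1 and 6 (0.64). Both pairs of Ctrl libraries were left out after the data were seen. Without β-Mfn2KO 2 its adjusted p reached 0.28. The log2 fold change was 0.34 in males and 0.94 in females, with an adjusted interaction p of 1, but both deep β-Mfn2KO libraries were male, so sex and depth are not separated. Cntfr, the receptor of ciliary neurotrophic factor, stood at 4649, 3565, 3416, 4196 and 3499.6 against 1654, 2202 and 3087 (0.74 ± 0.18, adjusted p = 0.44), with replicates 1 and 4 the highest. Slc30a1, a zinc exporter, stood at 1416, 1438, 1459, 1513 and 1433 against 918, 1236 and 1369.8 (0.29 ± 0.08), and its β-Mfn2KO libraries lay close together. Gp5 (0.64 ± 0.18), Fam151b (0.47 ± 0.14), Zdhhc23 (0.23 ± 0.07), Rnf141 (0.17 ± 0.05) and the lipid transfer gene Osbpl8 (0.15 ± 0.04) were the others on the higher side, with an adjusted p of 0.93 each.

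On the lower side, Agap2, a GTPase-activating protein, stood at 316, 317, 345, 278 and 336 against 393, 414 and 462 (−0.40 ± 0.09, adjusted p = 0.24). Wtip stood at −0.41 ± 0.12, Spon2, an extracellular matrix gene, at −0.41 ± 0.14, and the processed gene Gm10053 at −0.34 ± 0.11. Smaller differences were those of Gmds, an enzyme of GDP-fucose synthesis (−0.20 ± 0.06), Lrrc20 (−0.20 ± 0.06), Zscan21 (−0.20 ± 0.06) and Clpb, a disaggregase of the mitochondrial intermembrane space (−0.16 ± 0.05), whose values were 1650.3, 1682, 1508, 1697 and 1599.5 against 1739.9, 1800.2 and 1946. Apart from Agap2, all had an adjusted p of 0.93.

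**Figure D5:**
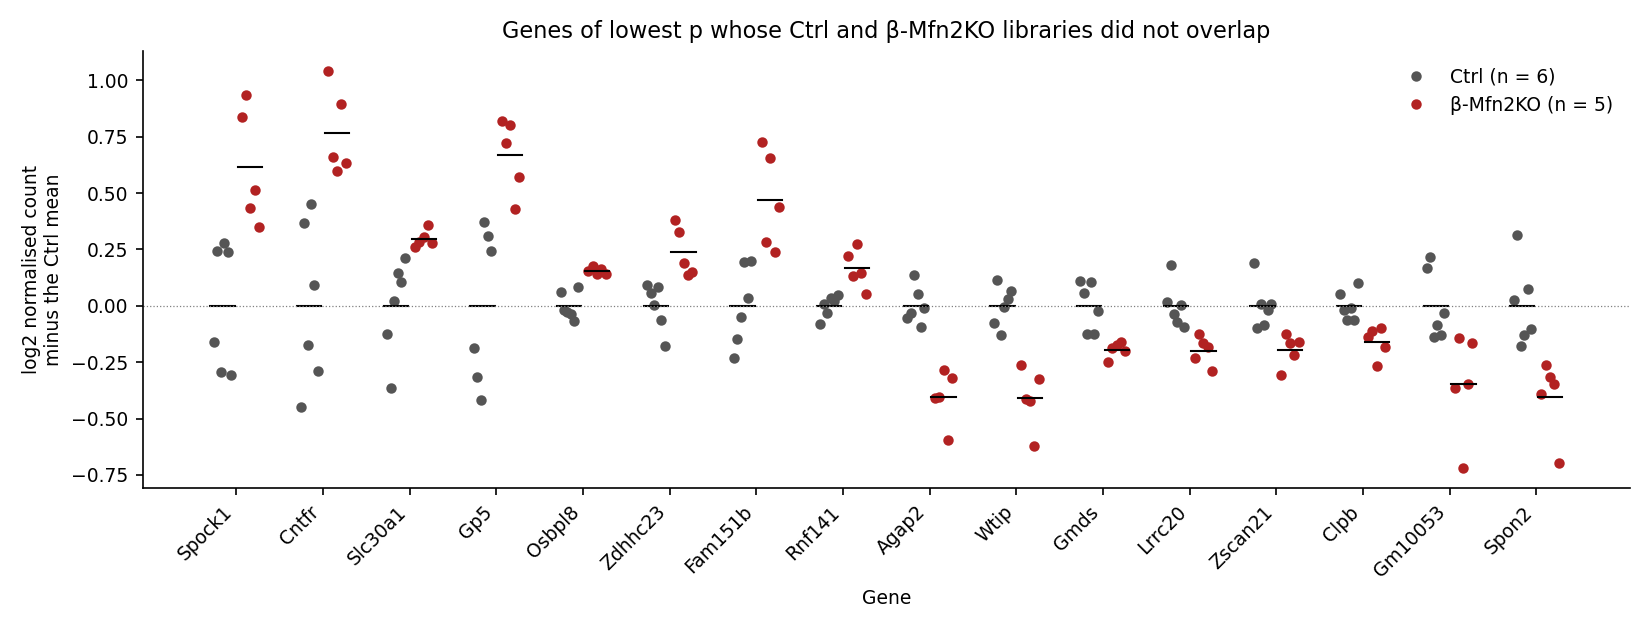
Log2 normalised counts minus the Ctrl mean (vertical axis) of the 16 genes of lowest p whose Ctrl and β-Mfn2KO libraries did not overlap, 8 higher and 8 lower, beyond those already named; points are libraries and lines are group means. Fitted log2 fold changes ran from 0.74 (Cntfr) to −0.41 (Spon2 and Wtip), and 0 of the 16 had an adjusted p under 0.05 in edgeR.

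Stress-related lists had few members that stood out. Of 25 measured genes of the integrated stress response (27 listed), 2 were higher and 3 lower at an unadjusted p under 0.05 (2.36% and 2.19% of all genes were), 0 after adjustment. The median was −0.08, but −0.00 without Ctrl 1 and −0.16 without Ctrl 3. Gdf15, a secreted stress hormone, stood at 584, 556, 1034, 663 and 918 against 462, 603 and 673 (0.38 ± 0.17), highest in replicates 3 and 5, while Pck2, a mitochondrial gluconeogenic enzyme, stood at 8959.7, 8870, 6030.1, 9023 and 7817 against 8514, 10259 and 12261 (−0.35 ± 0.11). Ddit3, the transcription factor CHOP, stood at 2200.4, 2138, 8127, 2556 and 3504 against 1628, 2290.4 and 3297 (0.57 ± 0.28), with replicate 3 far above the rest, and without that library the log2 fold change was 0.07. In β-Mfn1/2DKO 11 of the 25 were higher than in β-Mfn2KO by the adjusted test, where 14.6% of all genes of that level were, and the median difference was 0.42. Of 22 genes of ER chaperones and the unfolded protein response, 18 had a negative sign, where 5673 of all 12214 genes of that level had. The median was −0.11, with Creld2, an ER stress-induced protein, at −0.32 ± 0.14 (unadjusted p = 0.029). Among the shallow libraries the median was −0.01.

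Other lists moved with single libraries. The 17 measured interferon-stimulated genes (25 listed) had a median of 0.29 with 16 positive signs, where 6541 of all 12214 genes of that level had 1. Of the 17, 2 were higher at an unadjusted p under 0.05 (2.36% of all genes were). The median was −0.03 without β-Mfn2KO 5, the library high in fibroblast and leukocyte markers. Oas2, a sensor of double-stranded RNA, stood at 62.1, 53.6, 48.5, 113 and 455 against 57.1, 66.2 and 143 (0.96 ± 0.46), and Usp18, a brake on interferon signalling, at 1009.9, 1027, 1093, 1027 and 1304 against 651, 902 and 1196 (0.29 ± 0.12). In both, replicate 5 was the highest. With 1 library left out in turn, Oas2 ran from −0.12 to 1.22 and Usp18 from 0.21 to 0.38, so the sign of Usp18 did not rest on replicate 5. Mx1, an interferon-stimulated gene with a mean of 97.0 and so below the level limit, stood at 121, 159, 75.4, 114 and 196 against 27.4, 55.0 and 130.8. Its log2 fold change ran from 0.81 to 1.31 in these fits. Among the shallow libraries it was 0.83 (unadjusted p = 0.033, adjusted p = 0.94). The 23 measured acinar enzyme genes (30 listed) had a median of 1.16 with 23 positive signs and 0 members at an unadjusted p under 0.05. The median was −0.19 without β-Mfn2KO 4, the highest of the 11 libraries in acinar RNA. The 7 measured genes of the disallowed and progenitor list (15 listed) had a median of 0.29, which was −0.10 without β-Mfn2KO 5, and among them Cd81, a surface protein of immature β-cells, stood at 3047, 3056, 3408, 2774 and 3069 against 1924, 2521 and 2909 (0.33 ± 0.08, adjusted p = 0.67).

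The remaining lists gave medians near that of all genes. They were −0.02 for 78 cytosolic ribosomal proteins, 0.00 for 21 antioxidant genes, −0.01 for 16 targets of p53 and apoptosis genes, −0.02 for 12 cell cycle genes, 0.00 for 24 genes of cholesterol and fatty acid synthesis, 0.02 for 19 of exocytosis and excitability, −0.07 for 12 immediate early genes and 0.04 for 17 clock genes. None of their members passed the adjusted test. In the shallow libraries the medians were −0.12 for the cytosolic ribosomal proteins, with 14 of 78 lower at an unadjusted p under 0.05, −0.23 for the immediate early genes, with 3 of 12 lower, and 0.13 for the clock genes, with 3 of 17 higher, against 2.42% of all genes lower and 2.62% higher, and 0 of these members passed the adjusted test there. By exon length, medians in that fit were −0.11 up to 1000 bases and 0.02 above 4000 bases, and the part of length in these lists was not tested. At an unadjusted p under 0.05 stood Cat, the catalase gene (0.32 ± 0.14), Bid, a link of death receptors to mitochondria (0.33 ± 0.15), which the more abundant Bcl2l13 overlaps on the opposite strand, Cry1, a repressor of the clock (0.28 ± 0.12), and Nr4a1, an activity-induced nuclear receptor (−0.69 ± 0.27), which stood at 243, 181, 159, 223 and 244 against 219, 276 and 643.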

How the data were processed

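RNA was taken from cultured islets, and libraries were read as paired ends on an Illumina NovaSeq. Per the labels and the study's methods, the authors trimmed reads with cutadapt 2.3, checked them with FastQC 0.11.8, aligned them to GRCm38 with STAR 2.6.1b, estimated gene counts with RSEM 1.3.1 and tested them with DESeq2 1.26.0. The deposited table gives the estimated counts rounded to integers and not normalized, and genes at 0 in all samples had been removed. The strand setting is not given in the sources used here. A second deposited table of normalized values was not used. Columns of samples left out numbered 0.

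Samples were grouped by their labels. Counts of all 28632 genes were tested in R 4.3.3 with edgeR 4.0.16: TMM scaling, estimateDisp, glmQLFit and glmQLFTest with the 20 libraries fitted together, a coefficient for each group and nothing else in the model, and Benjamini-Hochberg adjustment over all genes. A call needed a fold change over 1.5 together with an adjusted p under 0.05. The size of the log2 fold change over the root of its F statistic gave the SE. Normalised counts were scaled by TMM to the mean of the effective library sizes. Group means of shares of counts were tested by exact two-sided permutation in SciPy 1.17.1. Genes were matched to GENCODE mouse release M21, where 53 had no symbol, and transcripts were compared in 75-base stretches. A nuclear gene was taken as a copy of an mtDNA gene where at least 20% of its stretches occur in it. The test was tested on simulated data. The sequence of the floxed Mfn2 exon is not reported here.

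Members, gene lists and tests were chosen with earlier results of these data known. The named genes were the mitofusins, the insulins, all mtDNA mRNAs and rRNAs, all genes with an adjusted p under 0.05, the 8 genes of lowest p in each direction among the others with a mean of at least 100 normalised counts and no overlap between libraries, and in each list the member of lowest p in each direction where that p was under 0.05, or otherwise its defining genes. Genes of the study's heatmaps were added where a list holds them. Neighbours of the mitofusins, Areg, Ddit3, Masp2, Mx1, Col1a1 and Cela2a were chosen after their values were seen.

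Alternatives were DESeq2 1.42.0, edgeR with the size factors of DESeq2, with total counts or with TMM computed without mtDNA genes, filterByExpr, only the groups compared, sex or replicate number as covariates, shallow libraries alone (without β-Mfn2KO 4 and 5 and β-Mfn1/2DKO), counts drawn down to the smallest total, and each library left out in turn. Added after the data were seen were fits without Ctrl 1 and 6, without Ctrl 2 and 4, without Ctrl 6 and β-Mfn2KO 5, with depth class as a covariate, and with mtDNA genes summed with their nuclear copies. As β-Mfn2KO alone held libraries of both depth classes, the depth-class contrast of β-Mfn2KO and Ctrl rests on the shallow libraries.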

Additional observations from a re-analysis of the deposited data

Results flagged for a closer look

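In the groups of 4 to 10 libraries of the named genes, a library was marked where its gap to the nearest of the others was large for the range of its group (Dixon's test). Of 178 groups tested, 15 were marked, where the critical value lets about 1 in 20 groups through by chance. All values are normalised counts.

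Among the targeted and mtDNA genes, Mfn1 was at 1807 in β-Mfn2KO 4 (the other 4 libraries at 1683 to 1712), mt-Nd2 at 32253 in β-Mfn2KO 3 (39433 to 42084), mt-Co1 at 146672 in β-Mfn2KO 1 (129210 to 130714) and mt-Cytb at 63648 in β-Mfn2KO 1 (52573 to 55722). These mtDNA libraries all lay below Ctrl.

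β-Mfn2KO 3 stood apart in 3 further genes. Areg, a growth factor of the EGF family, was at 2121 there against 56.4 to 177 in the other 4 libraries and 14.6 to 65.6 in Ctrl, and at 2588 to 3139 in the 5 β-Mfn1/2DKO libraries. Its log2 fold change was 3.43 ± 0.77 (SE) (edgeR adjusted p = 0.29), and 1.47 to 3.71 with 1 library left out in turn. In the shallow libraries, which include β-Mfn2KO 3, it was called (4.05, adjusted p = 0.028). Ddit3 was at 8127 in β-Mfn2KO 3 (2138 to 3504), inside the range of 6243 to 13040 of β-Mfn1/2DKO. Masp2 was at 40.4 in β-Mfn2KO 3 (84.2 to 98.7).

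Ctrl 6 and β-Mfn2KO 5 stood apart together. Col1a1, a collagen gene of fibroblasts, was at 4228 in Ctrl 6 (131 to 541) and 5544 in β-Mfn2KO 5 (81.8 to 705), and Oas2 was at 143 in Ctrl 6 (57.1 to 84.3) and 455 in β-Mfn2KO 5 (48.5 to 113). Usp18 was at 1304 in β-Mfn2KO 5 (1010 to 1093) and Bid at 405 in Ctrl 6 (231 to 286).

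The acinar protease gene Cela2a was at 39969 in β-Mfn2KO 4 (1860 to 7735), and Zscan21 was at 959 in Ctrl 1 (785 to 847).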

How the results depend on the processing

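For the 15 called genes, 375 alternative values were computed, of which 334 kept direction and call, 41 lost the call by adjusted p or fold and 0 reversed. The losses were those of Olfr330 (13), mt-Nd1 (12), mt-Co2 (7), Rbm20 (5, all by fold, such as a log2 value of 0.58 with the replicate block), Cldn11 (3, adjusted p of 0.074 with only the groups compared, 0.10 in shallow libraries and 0.088 with depth class) and Ins1 (1, 0.13 in shallow libraries), and their cause was not tested. The shallow and depth-class fits are not separate alternatives here, as β-Mfn2KO alone held libraries of both depth classes. With each library left out in turn, there were 12 to 16 called genes, 13 to 19 with an adjusted p under 0.05 and 8 to 10 mtDNA mRNAs. The counts that DESeq2 and filterByExpr gave for β-Mfn2KO against Ctrl are not reported here. Total-count scaling moved the median of all genes from 0.01 to 0.04 and split the calls into 3 higher and 12 lower. Genes outside the 15 were called in some alternatives, such as Areg, Spock1, mt-Nd3 and Hspa1a in shallow libraries.

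Labels give the groups the same replicate numbers, but deviations from the group means correlated by 0.357, 0.399, −0.0512, 0.484 and −0.126 within the numbers 1 to 5, so the numbers were not taken as pairs (2 of 5 β-Mfn2KO libraries correlated best with their own number, a hint from the data only). With the replicate block, 25 genes had an adjusted p under 0.05, and 18 were called, 13 of them among the 15. Over 5 same-numbered pairs the block gave −0.738 points for the mtDNA mRNA share and −9.44 for the Ins1 share, each with an exact permutation p of 0.0625, the smallest that 5 pairs can give.

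The count of genes with an adjusted p under 0.05 between β-Mfn2KO and β-Mfn1KO (96) depended most on the processing: 853 with DESeq2, 353 with the replicate block, 282 with filterByExpr, 208 without Ctrl 1 and 6, 61 with total-count scaling, 60 with depth class, 45 in shallow libraries, and 37 to 180 leaving out 1 library. Between β-Mfn1/2DKO and β-Mfn2KO, whose depths differ, depth class gave 1683 in place of 3719. As all β-Mfn1/2DKO libraries were deep, that contrast rests on β-Mfn2KO 4 and 5 alone. The share of nuclear respiratory subunits (0.00175 points, not called) changed sign to −0.0320 in shallow libraries, −0.0123 without hormone and acinar genes in the denominator, −0.0105 without Ctrl 2 and 4 and −0.00604 without Ctrl 6 and β-Mfn2KO 5, and ran from −0.0191 to 0.0180 leaving out 1 library. The cause of these changes was not tested.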

Other observations

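Scg3, a granin-binding protein of secretory granules, was the only other member of the prohormone and insulin processing list besides Ins1 with an unadjusted p under 0.05 (log2 fold change −0.22 ± 0.10 (SE), 18 genes listed), and it was named after its value was seen. In the integrated stress response list, Pycr1 (−0.35 ± 0.13) and Shmt2 (−0.24 ± 0.11), enzymes of mitochondrial proline and one-carbon metabolism, stood with Pck2 on the lower side, and the transcription factor Atf5 (0.16 ± 0.08) with Gdf15 on the higher side. These 3 genes were also named after their values were seen, and their adjusted p was above 0.05.

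Some genes beside Mfn2 differed widely between Ctrl libraries. Zfp982 was at 93.0 in Ctrl 1 and 43.6 in Ctrl 6, at 2.12 to 3.51 in the other Ctrl libraries, at 1.32 to 4.47 in β-Mfn2KO and at 72.6 to 85.2 in β-Mfn1KO. Zfp990 was at 0 in Ctrl 1 and at 137 in Ctrl 6, where the other Ctrl libraries had 184 to 368, and at 223 to 354 in β-Mfn2KO. Fkbp11, a prolyl isomerase of the secretory pathway, lies on chromosome 15, away from both mitofusin genes. It was called with the replicate block (−0.75) but not in the main edgeR fit (−0.60, adjusted p = 0.93).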
